A study of Mus musculus with 6 samples.

Results

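The 32 genes described here encode the contractile apparatus of skeletal muscle, its calcium handling and its energy supply. They were taken as a list of symbols out of 28368 genes in the deposited count table, and each symbol matched 1 row. The rule itself uses no measured value of the members, but the list was chosen with earlier results of these data known. All 32 also passed the filter on low counts, which left 18049 genes in the test. Poly(A) RNA of whole mouse tumours was sequenced in 6 libraries. Those named treated 1, 2 and 3 are from mice given 12 h of the MS-DF-MS therapy, and those named control 1, 2 and 3 are from mice without treatment. The series title describes implanted depots that release a STING agonist and then an inducer of apoptosis. The labels give no drug name, tumour type, strain, sex or age, and no group received an empty depot, so drug and implant cannot be told apart. Whether each library is a separate animal is not given in the labels, so p-values reflect only how these samples vary, and part of that variation may be technical.

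Skeletal muscle fibres contract when myosin in thick filaments pulls on actin in thin filaments, within a repeating unit called the sarcomere. An electrical signal opens calcium release channels, calcium binds troponin on the thin filament, and pumps then return the calcium to its store. Fibres come in slow and fast types that use different genes for myosin, troponin and other parts, and the fast types are ordered by their myosin heavy chain as IIa (Myh2), IIx (Myh1) and IIb (Myh4). Most of these transcripts are markers of muscle fibres, so in a piece of tumour their level shows how much muscle RNA the piece holds. Fewer muscle cells and less RNA per cell cannot be told apart in such bulk samples.

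Libraries held 57017043 to 66634551 counts. A count is not 1 read pair: in each library more genes stood at exactly 4 counts (921 to 1007) than at 3 (457 to 539) or 5 (268 to 299), and 8 counts were also more frequent than 7 or 9. Intervals and limits below therefore take 4 counts as 1 read pair and cover counting error only. Transcripts of the pigment lineage were abundant in both groups, with 10 melanocyte genes summing to 22723.8 to 24729.5 CPM (the gene's counts relative to the library's total) in treated libraries, against 22127.2 to 24427.6 CPM in controls. Treated 1 and treated 3 stood apart in muscle genes, treated 1 high and treated 3 low. Treated 1 also held transcripts of skin. The 12 keratinocyte genes summed to 124.7 CPM there and to 4.64 to 5.73 CPM in the other 5 libraries, and Krt14, a keratin of basal epidermis, had 2739 counts in treated 1, 4 in control 1 and 0 elsewhere. The number of members that passed the test, their median log2 fold change and the log2 fold changes of the genes described most fully are therefore also given without treated 1. Other counts over the members are with all 6 libraries unless marked.

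Upstream sequence is shown for the most abundant sarcomeric member (Acta1), for the 3 fast myosin genes whose proportions differed between libraries (Myh2, Myh1, Myh4) and for a member that did not follow the others (Eno3). The 3 myosin genes lie side by side on chromosome 11, on the plus strand, Myh2 at 67171027 to 67197517, Myh1 at 67200052 to 67224575 and Myh4 at 67238029 to 67260446. Acta1 is on chromosome 8 (123891769 to 123894751, minus strand) and Eno3 on chromosome 11 (70657202 to 70662513, plus strand). These are spans of whole protein-coding genes as the authors' table gives them. Sequences are from RefSeq (GRCm38.p6), 5′ to 3′ on the gene's strand, and cover the 250 bases before the start annotated there. That start can differ from the start of the span above, as for Myh4, Acta1 and Eno3. Myh1 is cut to 200 bases, ahead of an annotated exon, and the Myh4 window overlaps an annotated exon of another gene, Myhas. Windows are chr8:123894776-123895025 (Acta1), chr11:67170777-67171026 (Myh2), chr11:67199852-67200051 (Myh1), chr11:67237562-67237811 (Myh4) and chr11:70656926-70657175 (Eno3). Capitals mark matches, on either strand, to the E-box CAGCTG that MyoD can bind, the TATA box TATAAA, the M-CAT element CATTCC, and the MEF2 and CArG box motifs.
Acta1: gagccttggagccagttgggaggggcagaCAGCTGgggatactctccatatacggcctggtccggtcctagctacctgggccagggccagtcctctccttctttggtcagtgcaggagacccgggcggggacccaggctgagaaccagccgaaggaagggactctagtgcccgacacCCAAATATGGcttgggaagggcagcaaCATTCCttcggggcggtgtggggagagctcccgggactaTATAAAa
Myh2: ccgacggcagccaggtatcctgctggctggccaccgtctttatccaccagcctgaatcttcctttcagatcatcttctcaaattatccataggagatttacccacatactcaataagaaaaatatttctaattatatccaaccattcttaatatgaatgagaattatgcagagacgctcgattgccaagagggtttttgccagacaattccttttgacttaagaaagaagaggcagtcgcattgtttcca
Myh1: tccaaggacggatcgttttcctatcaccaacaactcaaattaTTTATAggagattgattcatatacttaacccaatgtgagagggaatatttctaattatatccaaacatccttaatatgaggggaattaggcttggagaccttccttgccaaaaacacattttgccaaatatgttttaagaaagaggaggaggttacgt
Myh4: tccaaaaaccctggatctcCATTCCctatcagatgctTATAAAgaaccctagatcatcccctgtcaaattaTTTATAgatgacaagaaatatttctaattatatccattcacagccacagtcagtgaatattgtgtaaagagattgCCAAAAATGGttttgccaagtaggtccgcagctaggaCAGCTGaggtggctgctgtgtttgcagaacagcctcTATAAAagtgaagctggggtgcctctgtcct
Eno3: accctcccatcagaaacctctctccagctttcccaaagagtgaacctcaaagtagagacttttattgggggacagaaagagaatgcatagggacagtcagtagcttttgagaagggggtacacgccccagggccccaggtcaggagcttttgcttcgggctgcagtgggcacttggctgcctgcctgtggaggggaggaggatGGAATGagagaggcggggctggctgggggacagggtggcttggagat
Acta1 had 4 matches in this window and Myh4 had 6, Myh1 and Eno3 had 1 each, and Myh2 had 0. A promoter was found for 23 of the 32 members. Members are counted by gene, with a match in any promoter of the gene, and the background by promoter window, so the units differ. The E-box CAGCTG was in the window of 11 of these 23 (47.8%), against 13.0% of 32851 promoter windows of the same length. CATTCC was in 7 (30.4%, against 12.6%), TATAAA in 5 (21.7%, against 12.4%), the CArG box in 3 (13.0%, against 1.47%) and the MEF2 motif in 2 (8.70%, against 0.508%). These counts use all 250 bases of each gene, and the CATTCC counted for Myh1 is not within the part printed here. A match is a string of letters and no measurement of binding.

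With all 6 libraries, muscle transcripts differed more between libraries of the same group than between the groups. The 32 genes summed to 310.4, 88.5 and 52.9 CPM in treated 1, 2 and 3, and to 170.6, 141.8 and 99.97 CPM in control 1, 2 and 3. The treated libraries thus lay on both sides of all controls, 5.86-fold apart at the extremes, while the controls lay within 1.71-fold. The treated mean was 150.6 ± 139.5 CPM and the control mean 137.5 ± 35.5 CPM (SD, n = 3), and their ratio of 1.10 is far inside that spread. That rests on treated 1. Without it the ratio was 0.514, and treated 2 and 3 both lay below every control. As a share of all counts the genes made up 0.0315%, 0.00862% and 0.00528% in treated 1, 2 and 3, and 0.0172% and 0.0143% in control 1 and 2, with control 3 between control 2 and treated 2. Muscle RNA was thus a trace in every library.

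**Figure D1:**
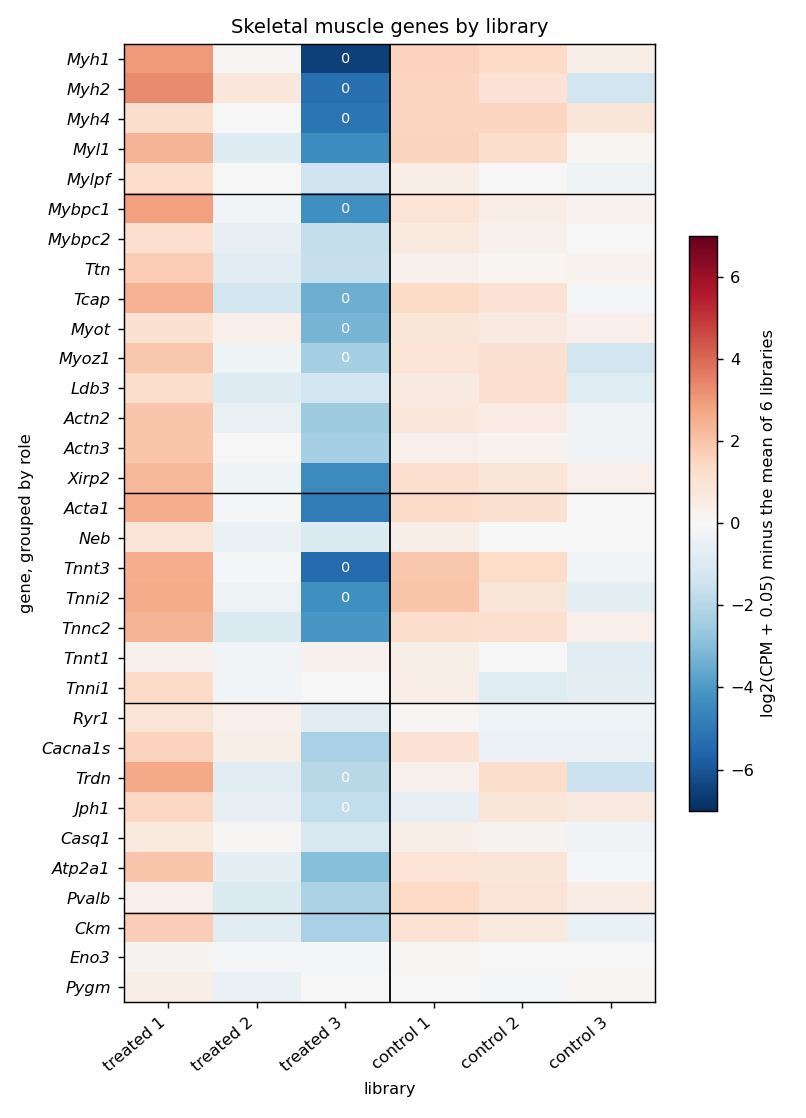
Each row is a member, grouped by role (lines), and each column a library. Colour gives log2(CPM + 0.05) minus the gene's mean over the 6 libraries, and a 0 marks a count of 0. Treated 1 is the red column and treated 3 the blue one, with 11 genes at 0 counts, while Tnnt1, Eno3 and Pygm stay pale throughout.

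The genes varied together across libraries. Treated 1 was highest for 29 of the 32 members and treated 3 lowest for 28, against 22.0% and 16.6% of all tested genes. The order treated 1, treated 2, treated 3 held for 28 members, and control 1 exceeded control 3 for 30. In treated 3, 11 members had 0 counts, as did 1.78% of all tested genes, and no member had 0 counts in any other library. A count of 0 in treated 3 allows a level of up to 0.181 CPM (3 read pairs). The median member stood in treated 3 at 3.49% of its level in treated 1. The range over the 6 libraries had a median of 4.40 on the log2 CPM scale for the members and 0.57 for all tested genes.

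Treated against control, all members. No member passed the test between the groups. Of 32 tested, 0 rose and 0 fell by edgeR's quasi-likelihood F test at a Benjamini-Hochberg adjusted p under 0.05 over all genes, against 1.36% of all tested genes that rose and 0.249% that fell. At an unadjusted p under 0.05 there was 1 member, against 16.0% of all tested genes, and DESeq2 and limma-voom also called 0. The median log2 fold change was 0.09, against -0.003 over all tested genes, with 18 members above 0 and 14 below. That median was -1.79 without treated 1 and 0.62 without treated 3, and 0 members passed in either case. Without treated 1, 15 of the 18 members above 0 turned to below 0, and Tnnt1, Tnni1 and Ryr1 stayed above. With limma-voom on all 6 libraries the number that turned was also 15. The count of 0 does not show that the groups are alike: the SE of a log2 fold change exceeded 1 for Acta1, the 3 myosin heavy chains and the 3 fast troponin genes, so a wide range of differences is compatible with these data.

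**Figure D2:**
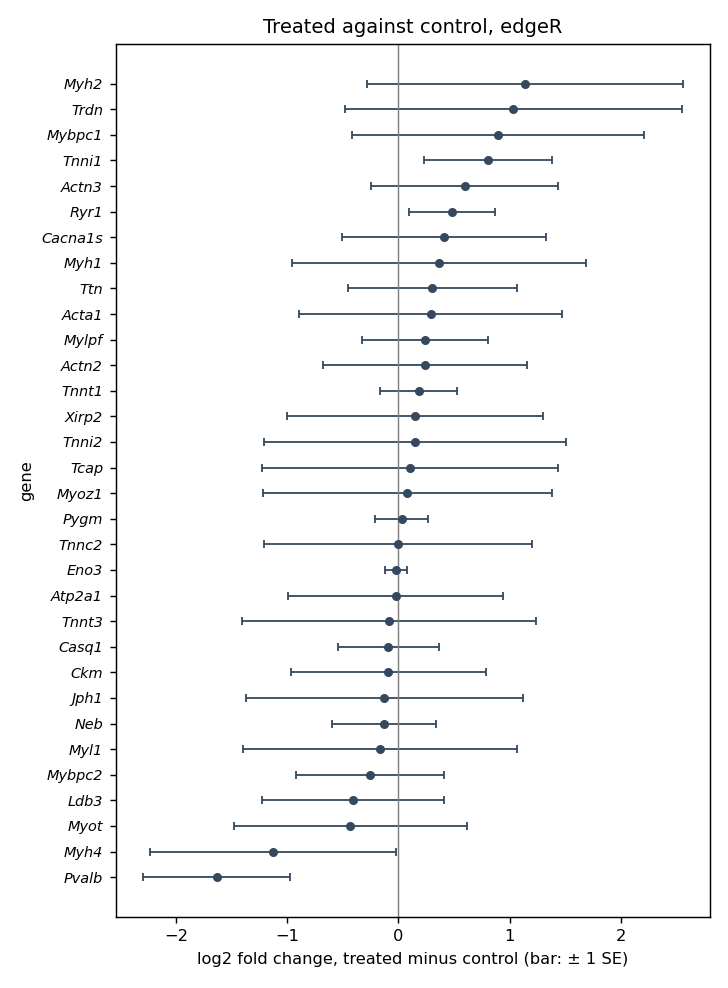
Points are edgeR log2 fold changes, treated minus control, of the 32 members, and bars are ± 1 SE. Estimates run from -1.64 (Pvalb) to 1.14 (Myh2), and the SE is smallest for Eno3 (0.10), Pygm (0.24), Tnnt1 (0.35) and Ryr1 (0.39).

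Myosin motors. Myh1, the heavy chain of type IIx fibres, stood at 37.3, 4.97 and 0 CPM in treated 1, 2 and 3 and at 14.3, 12.4 and 6.14 CPM in the controls. Treated 1 was above and treated 2 and 3 below every control, and the log2 fold change was 0.36 ± 1.33 SE (edgeR adjusted p = 0.93), but -2.14 without treated 1. Myh2, of type IIa fibres, stood at 19.0, 3.14 and 0 CPM against 5.48, 3.80 and 0.754 CPM. Treated 1 was above every control, treated 2 within their range and treated 3 below. Its log2 fold change of 1.14 ± 1.43 (edgeR adjusted p = 0.764) turned to -1.10 without treated 1 and to -1.81 with limma-voom. Myh4, of type IIb fibres, stood at 3.99, 1.69 and 0 CPM against 4.71, 4.76 and 2.98 CPM. It was the only one of the 3 heavy chains whose treated 1 value lay within the range of the controls (log2 fold change -1.13 ± 1.11, edgeR adjusted p = 0.686, and -2.29 without treated 1). The light chains Myl1 and Mylpf had 8.51 and 10.9 CPM in treated 1. In treated 3, Myl1 was left with 2 counts, whereas Mylpf kept 115 counts (1.73 CPM).

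The proportions of the fast heavy chains differed from library to library. Shares are of the summed FPKM of the 3 genes, a level per length. Myh2 made up 29.0% and 29.3% in treated 1 and 2, and 20.2%, 16.2% and 6.67% in control 1, 2 and 3. Myh4 made up 7.22% and 18.6% in treated 1 and 2, and 20.6%, 24.2% and 31.6% for the 3 controls. Myh1 held most in each of these libraries, from 52.1% to 63.8%. Treated 3 had 0 counts of all 3, so its proportions are unknown. In shares of counts the exact 95% binomial interval for Myh2 was 28.6 to 34.5% in treated 1, 24.5 to 39.5% in treated 2, 18.5 to 26.9% in control 1, 14.1 to 22.6% in control 2 and 3.96 to 13.5% in control 3. The treated 1 interval did not overlap that of any control, and the treated 2 interval overlapped that of control 1. For Myh4 the interval in treated 1 (5.12 to 8.33%) lay below those of the other 4 libraries, which began at 11.6%. With 2 treated libraries that hold any count, no test between groups was made. Reads can be shared between such paralogs, which makes their split uncertain: 2.49% of the 150-base windows of the Myh1 transcript, 2.06% for Myh2 and 0.511% for Myh4 occur exactly in another gene of the family (Myh1, Myh2, Myh3, Myh4, Myh8).

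**Figure D3:**
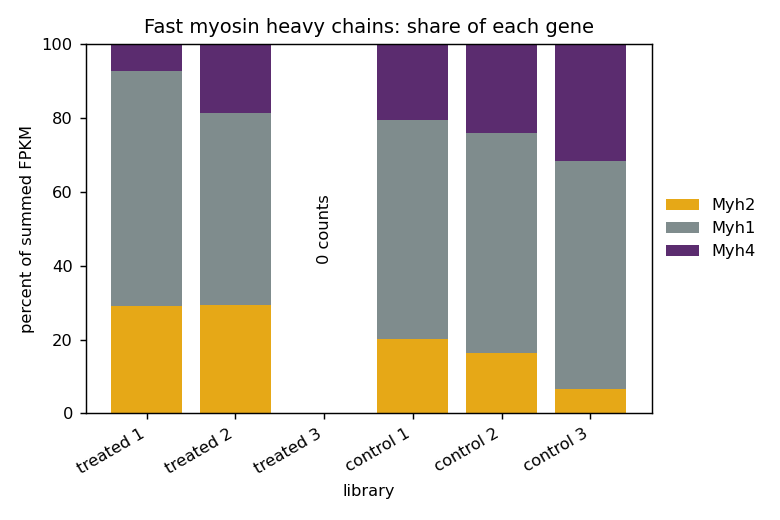
Bars give the share of Myh2, Myh1 and Myh4 in their summed FPKM in each library, and treated 3 has 0 counts of all 3. Myh2 has its highest shares in treated 1 and 2 (29.0% and 29.3%), and Myh4 its lowest in treated 1 (7.22%) and its highest in control 3 (31.6%).

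Thin filament and troponin. Acta1, skeletal muscle actin, was the most abundant sarcomeric member by mean FPKM, with an FPKM of 34.4, 5.27 and 0.153 in treated 1, 2 and 3 against 14.7, 12.0 and 5.82 for the controls. In counts this was 3881, 601 and 19 against 1653, 1340 and 575. Treated 1 exceeded every control and treated 3 was below all of them (log2 difference 0.29 ± 1.19 SE, edgeR adjusted p = 0.939, and -1.97 without treated 1). The fast troponin genes followed the same course. Tnnt3, the fast subunit that binds tropomyosin, had 779, 116 and 0 counts in the treated libraries, while the controls had 498, 328 and 100. Tnni2, the fast inhibitory subunit, had 374, 45 and 0 counts against 232, 107 and 31, and Tnnc2, the fast calcium sensor, had 448, 40 and 2 counts against 196, 183 and 94. Tnnc2 overlaps Ube2c, a mitotic gene on the other strand with a mean of 6280 counts, so reads near either gene may be counted for the other. Neb, the giant protein that runs along the thin filament, varied less, at 5.85, 2.25 and 1.53 CPM against 4.34, 3.07 and 3.14 CPM.

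Of the slow troponin genes, Tnnt1 went another way, while Tnni1 was highest in treated 1 but did not reach 0 counts in treated 3. Tnnt1, the slow tropomyosin-binding subunit, was counted 163, 113 and 165 times across the treated libraries, and 178, 131 and 65 times across the controls. Treated 3, with 0 counts of Tnnt3, was thus as high in Tnnt1 as treated 1 (log2 fold change 0.18 ± 0.35, edgeR adjusted p = 0.852, and 0.10 without treated 1). Tnni1, the slow inhibitory subunit, had 119, 39 and 45 counts against 63, 24 and 24 (0.81 ± 0.58, edgeR adjusted p = 0.555, and 0.12 without treated 1). In treated 3 it kept 36.9% of its FPKM in treated 1. Of the summed FPKM of the slow and fast gene, Tnnt1 made up 12.9%, 41.1% and 100% in treated 1, 2 and 3 against 20.3%, 22.3% and 31.7% for the controls. Tnni1 made up 11.6%, 26.2% and 100% against 10.1%, 8.44% and 24.0%. Both slow shares were highest in treated 3, where the fast gene of each pair had 0 counts. Of the other genes of slow fibres, Myh7, the slow myosin heavy chain, had 25, 3 and 0 counts against 7, 0 and 0. Myl3, a slow light chain, had 4 counts in treated 3 and 0 elsewhere. Myl2, another slow light chain, had 13, 0 and 17 counts against 0, 0 and 0. Myh7, Myl3 and Myl2 were named after their values were seen. In the list of 10 slow-fibre genes, 7 were tested and 0 rose or fell. Its most abundant genes, the calcium pump Atp2a2 and the tropomyosin Tpm3, had 33616 to 39094 and 24099 to 27354 counts per library, and both are known to be expressed in many cell types.

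Thick filament, Z-disc and M-band partners. Xirp2, an actin-binding protein of muscle attachment sites, reached 794, 124 and 4 counts in the treated libraries, against 345, 281 and 174. Mybpc1, the slow-type myosin-binding protein C, had 470, 53 and 0 counts against 120, 84 and 65, and its fast relative Mybpc2 had 180, 51 and 23 against 127, 95 and 69. Of the summed FPKM of this pair, Mybpc1 made up 67.5% in treated 1 and 0% in treated 3, with treated 2 between them at 45.05% and the controls at 41.2% to 43.0%. The share of this slow-type gene thus had its lowest value in treated 3, where those of Tnnt1 and Tnni1 were highest, but it rests on few counts. In shares of counts its exact 95% binomial interval in treated 3 was 0 to 45.9%. That overlapped the intervals of treated 2 (29.9 to 70.1%) and of control 1, 2 and 3 (35.5 to 61.4%, 31.7 to 62.1% and 29.8 to 64.9%). Actn2 and Actn3, the alpha-actinins that anchor thin filaments at the Z-disc, had 17 and 22 counts in treated 3 and 420 and 470 in treated 1, with controls at 78 to 183 and 89 to 156. Ttn, the spring that spans the sarcomere, stood at 12.0, 1.96 and 1.10 CPM in treated libraries. Its controls lay close together, at 4.22, 3.79 and 4.15 CPM, and treated 2 and 3 were below them. Tcap and Myoz1, both small Z-disc proteins, and Myot, which binds actinin, each had 0 counts in treated 3 and 189, 57 and 62 in treated 1. Ldb3, another Z-disc protein, had 82, 16 and 12 counts against 53, 74 and 15.

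**Figure D4:**
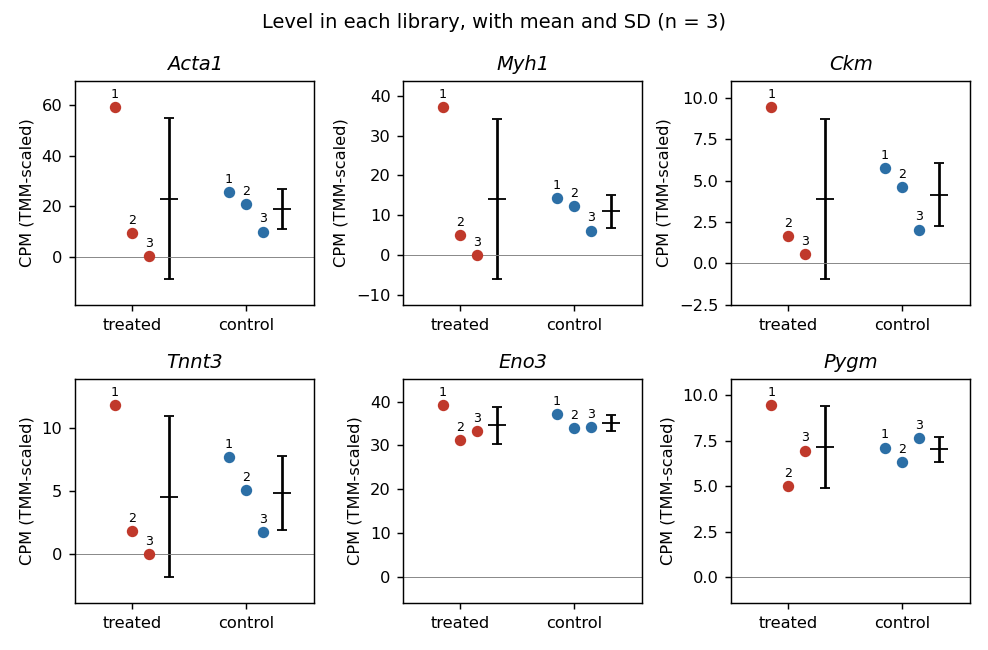
Points are TMM-scaled CPM in each library, numbered by replicate, with the group mean and SD (n = 3) to the right. Acta1, Myh1, Ckm and Tnnt3 range from the highest value in treated 1 to values near 0 in treated 3, while Eno3 stays between 31.1 and 39.3 CPM and Pygm between 5.01 and 9.48 CPM.

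Calcium release and uptake. Atp2a1, the fast-fibre calcium pump, stood at 12.6, 2.10 and 0.376 CPM in treated 1, 2 and 3 and at 6.33, 6.04 and 2.96 CPM in the controls (log2 fold change -0.03 ± 0.97, edgeR adjusted p = 0.995, and -2.05 without treated 1). Ryr1, the calcium release channel, was far less variable, at 5.47, 3.84 and 1.75 CPM against 3.12, 2.39 and 2.40 CPM. Cacna1s, the voltage sensor that opens it, had 119, 49 and 5 counts against 77, 26 and 23. Casq1, which stores calcium beside the channel, had 158, 103 and 44 counts against 132, 109 and 71. Trdn, which links Casq1 to the channel, and Jph1, which holds the membranes of the triad together, had 76 and 27 counts in treated 1 and 0 in treated 3. Ryr1 and Casq1 in treated 3 kept 31.9% and 27.3% of their FPKM in treated 1, while Atp2a1 kept 2.96%.

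Pvalb, the calcium buffer of fast fibres, was the only member whose groups did not overlap. Its counts were 64, 23 and 8 across the treated libraries, against 131, 91 and 63, so every treated library was below every control (0.485 ± 0.443 against 1.51 ± 0.467 CPM, SD, n = 3). The log2 fold change was -1.64 ± 0.67 (edgeR adjusted p = 0.285) and -2.66 without treated 1 (edgeR adjusted p = 0.0898), and across the alternatives tried the smallest adjusted p was 0.0794. That is 1 of 32 members in which all treated values lay below the control values, where the share over all tested genes was 11.2%, and 0 of 32 lay above, where it was 12.0%. These counts are with treated 1, which lay above all controls for 29 members (33.3% of all tested genes). Treated 2 lay below all controls for 19 members and treated 3 for 29, against 31.2% and 30.4% of all tested genes. Pvalb and Myh4 were, with Tnnt1, the only members not highest in treated 1.

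Energy supply. Ckm, the creatine kinase of muscle, followed the sarcomeric genes, with counts of 619, 107 and 37 across the treated libraries, against 375, 297 and 117. Eno3, the muscle form of the glycolytic enzyme enolase, did not. It had an FPKM of 20.1, 15.5 and 17.1 in treated and 19.0, 17.3 and 17.4 in control libraries, above Acta1 in all but treated 1. Its log2 fold change was -0.02 ± 0.10 (edgeR adjusted p = 0.949, and -0.12 without treated 1). Pygm, muscle glycogen phosphorylase, stood at 9.48, 5.01 and 6.95 CPM against 7.12, 6.30 and 7.63 CPM (0.03 ± 0.24, edgeR adjusted p = 0.972, and -0.23 without treated 1). Eno3, Pygm and Tnnt1, grouped after their values were seen, were the only members in which treated 3 held over 50% of the treated 1 level. They took 80.9% of the counts of the 32 genes in treated 3 and 16.5% in treated 1. Without them the sum was 259.1, 50.6 and 10.1 CPM in treated 1, 2 and 3 and 123.4, 99.5 and 57.0 CPM in the controls. For these 3 genes the data go against the label of muscle contractile genes in so far as their levels did not follow the muscle transcripts.

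Other muscle genes and other tissues. A list of 59 further skeletal muscle genes had 45 tested, of which 0 rose and 0 fell, with a median log2 fold change of 0.04 (2 at an unadjusted p under 0.05). Treated 1 was highest for 33 of the 59, and 23 had 0 counts in treated 3, against 2 to 10 in the other libraries. Its sum was 229.4, 149.0 and 151.7 CPM in treated 1, 2 and 3 and 162.3 to 197.8 CPM in the controls, and its most abundant genes included Trim63 and Des. Trim63, a ubiquitin ligase of muscle wasting, stood at 45.8 to 47.0 CPM in treated and 40.7 to 48.8 CPM in control libraries. Des, the intermediate filament of muscle, stood at 31.0, 14.6 and 10.5 CPM against 17.8, 17.1 and 14.3 CPM. Mb, the oxygen store myoglobin, named after its values were seen, had 277, 43 and 0 counts against 63, 68 and 43.

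Regulators of muscle formation were scarce. Myod1, which commits cells to muscle, had 4 counts in control 2 and 0 elsewhere, Myog, which drives differentiation, had 26, 12 and 0 counts against 22, 9 and 12, and Myf6 had 35, 4 and 0 against 15, 16 and 0. Of 16 genes in the myogenic list 14 had a row and 10 were tested, of which 0 rose or fell (3 at an unadjusted p under 0.05). Its abundant members were Pax3, which also acts in pigment cells, at 166.4 to 252.2 CPM, and the MEF2 factors Mef2d (121.3 to 156.0 CPM) and Mef2c (27.4 to 77.1 CPM). Myf5 and Pax7 had no row under these symbols.

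**Figure D5:**
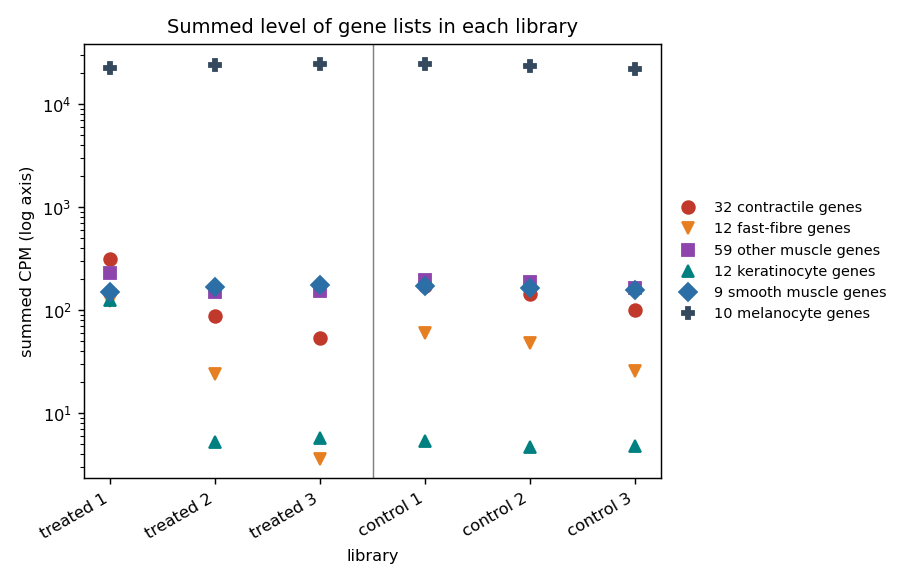
Points give the summed TMM-scaled CPM of each gene list in each library on a log axis. The fast-fibre genes run from 121.6 CPM in treated 1 to 3.60 CPM in treated 3, the keratinocyte genes are high in treated 1 alone (124.7 CPM), and melanocyte and smooth muscle genes stay nearly level.

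Summed markers of keratinocytes, macrophages, red blood cells and fat were, like the muscle genes, highest in treated 1. The part of these markers in the result was not tested. Keratinocyte genes were highest in treated 1 for 12 of 12, with Krt5 at 1841 counts there, 6 in treated 3 and 0 elsewhere, and 7 to 9 of the 12 genes had 0 counts in each other library. The sum of 10 macrophage genes was 273.6, 158.2 and 72.9 CPM in treated 1, 2 and 3 and 220.6, 208.2 and 160.4 CPM in controls, the same order as the muscle genes within each group, and all 10 were lowest in treated 3. The sum of 7 red blood cell genes was 1472.7, 486.2 and 262.1 CPM in treated 1, 2 and 3. In control 1, 2 and 3 it was 98.2, 168.6 and 249.6 CPM, the reverse of the order of the muscle genes. The 10 adipocyte genes were at 43.3 to 91.6 CPM, highest in treated 1, and 33.7 to 36.0 CPM, with 6 of 10 at 0 counts in treated 3. Tendon and fascia genes (9 with a row) summed to 9.08, 7.58 and 2.42 CPM in treated 1, 2 and 3. In control 1, 2 and 3 they summed to 13.6, 7.40 and 2.19 CPM, so they too kept the order of the muscle genes within each group. Of 10 endothelial genes 5 rose (Pecam1, Cdh5, Tie1, Emcn and Robo4) and 0 fell, and their sum was 163.6 to 188.0 CPM in treated and 94.6 to 98.6 CPM in control libraries, without the wide range of the muscle genes. Smooth muscle genes did not follow, at 148.1 to 177.0 CPM in treated and 154.9 to 171.7 CPM in control libraries, and 8 heart markers summed to 14.4 to 21.6 CPM in treated and 13.4 to 16.7 CPM in control libraries, led by Nppb (757 to 1260 counts). Of the 6 interferon-inducible genes used as a check of the labels, all 6 rose (Irf7, Isg15, Ifit1, Usp18, Mx2 and Rtp4), and their sum was 564.4 to 852.4 CPM in treated libraries against 52.4 to 66.5 CPM in the controls.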

How the data were processed

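Per the labels' protocols, poly(A) RNA was fragmented, made into libraries with uracil in the second strand and sequenced as 150 bp pairs. Tools listed in the submitters' processing notes are edgeR, fastp and StringTie, with no versions. Aligner, build, annotation and strand setting: not given in the sources used here. Reads of genes that overlap on the other strand (7 members have such a partner) may therefore be counted for either gene. The authors deposited raw counts and FPKM per gene, per the file headers. The FPKM column of control 2 has an extra suffix. Over 12046 genes, the ratio of FPKM to counts was compared with a product of a gene factor and a library factor. It deviated by less than 1% for 99.88% or more of genes in each library. All 32 members have an identifier in GENCODE M21 (GRCm38), 26 with the same span.

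Counts were analysed with edgeR 4.0.16 in R 4.3.3: filterByExpr (minimum count 10, total 15), TMM, glmQLFit and glmQLFTest on the group, two-sided, all 6 libraries, Benjamini-Hochberg over 18049 genes at 0.05. The fits were tested on simulated data. SE is the log2 fold change divided by the square root of F. CPM are TMM-scaled, and log2 CPM ranges used a prior count of 2. Alternatives included limma 3.58.1 (voom) and DESeq2 1.42.0. Exact (Clopper-Pearson) 95% intervals for shares used counts divided by 4, a choice made after seeing the data. Members and lists were chosen with earlier results of these data known. All members are named. Genes named from other lists are among the 3 of their list with the highest FPKM, passed the test or are regulators that the rule names for the myogenic list (Myod1, Myog, Myf5, Myf6, Pax7), unless marked, and not every such gene is named. One is not reported here. Of the replicate numbers shared between groups, same-numbered libraries had correlations of 0.09, -0.16 and -0.11 in their deviations from the group means. With 3 libraries per group these values cannot decide whether the numbers pair the libraries.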

Additional observations from a re-analysis of the deposited data

How the results depend on the processing

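Over 15 alternatives, 0 members rose or fell in any, and the smallest adjusted p of a member was 0.0794 (Pvalb, limma-voom with sample quality weights). Of 470 values of single members, 105 had the other sign, and Myh4, Pvalb, Ryr1 and Tnni1 kept theirs throughout. The median log2 fold change of the members was -1.05 with limma-voom, -1.93 with sample quality weights, -0.75 with the replicate block and -1.79 without treated 1 (-1.79 to 0.62 over the libraries left out in turn). The cause was not tested. The ratio of summed levels was 0.514 without treated 1 and 1.45 without treated 3. DESeq2 gave no adjusted p for Trdn, Jph1 and Myoz1.

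Over all genes, 246 rose and 45 fell. The numbers were 754 and 367 with DESeq2, 601 and 191 with sample quality weights, 164 and 10 with no filter, and 123 and 14 with the replicate block, where the smallest adjusted p of a member was 0.217. With each library left out in turn they were 94 to 308 and 3 to 39. Counts divided by 4, added after seeing the data, gave 284 and 65. How far depth limits the members was not tested, and the SE exceeded 1 both with few counts (Myot 1.05, Jph1 1.25) and with many (Acta1 1.19, Myh1 1.33).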
